A study of Rattus norvegicus with 6 samples.

Results

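Small noncoding RNA genes were examined in RNA-seq libraries made from poly-A RNA of rat PC12 cells, a line from a tumor of the adrenal medulla. Members were the rows of the deposited count table with gene type miRNA, snoRNA, snRNA, scaRNA, rRNA or misc_RNA, outside the mitochondrial chromosome, and with at least 30 raw counts summed over the 6 libraries. Of 836 rows of these types among 20609 rows in all, 112 (13.4%) were members: 63 snoRNA, 35 miRNA, 6 snRNA, 4 scaRNA and 4 rRNA genes. The table held 0 rows of type misc_RNA. Members were chosen by their summed counts, and the rule also marked genes with over 50% of their counts in 1 library, so both are given as descriptions without a test. At the threshold, AABR07072283.1 and a SNORA73 gene on chromosome 14 were just inside with 30 counts each, and SNORA9 and AC120448.1 were just outside with 29 each. The next inside was SNORA68 with 31 counts, and the next outside SNORD33 with 28.

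The study compared 3 control libraries, from cells transfected with a control plasmid, with 3 PCBP1-OE libraries, from cells transfected with a plasmid for PCBP-1, an RNA binding protein that attaches to C-rich sequence. According to the methods, the overexpressed protein carried an EGFP tag. The paper's introduction speaks of stable overexpression, while the methods describe a transfection. No source used here says whether the libraries of a group came from separate cultures, so p-values measure the spread between these libraries, which may be technical.

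Most small noncoding RNAs lack a poly-A tail. snoRNAs guide chemical modification of ribosomal RNA, box C/D members directing methylation and box H/ACA members directing pseudouridylation, and most are cut from introns of host genes. scaRNAs do the same for the spliceosomal snRNAs in Cajal bodies. miRNAs are processed from hairpins by Drosha and Dicer, and 5S rRNA is made by RNA polymerase III. A library of purified poly-A RNA, fragmented and selected for fragments longer than a mature miRNA, counts reads that fall within these gene bodies. Such reads cannot be told apart here from reads of a host transcript that covers the gene, and the sources name no strand setting for the counting.

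The libraries held 19730209 to 22315623 counts. Members took 0.0239% to 0.0304% of the counts in controls and 0.0269% to 0.0371% in PCBP1-OE. Levels are given as CPM, raw counts scaled to library size by the TMM method, and a call is an adjusted p of 0.05 or less by edgeR's quasi-likelihood test over 12624 tested genes. No row was matched to Pcbp1, so the overexpression was not checked. Of 11 chromaffin cell markers, 10 were in the table and 4 had at least 1 CPM in every library. Their summed level was 163 to 193 CPM in controls and 150 to 166 in PCBP1-OE. Among them, Chga had 0 to 3 counts per library and Dbh, the enzyme that makes noradrenaline, 0 to 5, while Th had 141 to 185. All 5 Schwann and glial markers were in the table, at 614 to 658 CPM in controls and 581 to 601 in PCBP1-OE, led by Sox10 with 7160 to 9007 counts. Of the chromaffin list, only Th, Scg2, Snap25 and Gata3 were above 1 CPM in every library, and Chga, Chgb, Dbh and Ddc were at or near 0. The data thus go in part against the label. The Schwann and glial sum was lower in PCBP1-OE without overlap, as were those of 4 fibroblast markers (225 to 230 CPM in controls, 200 to 212 in PCBP1-OE) and 5 leukocyte markers (7.50 to 8.82 and 6.79 to 7.45). The sums for adrenal cortex (2.32 to 2.73 and 1.99 to 3.62 CPM) and endothelium (0.268 to 0.383 and 0.227 to 0.545) overlapped. The part of these sums in the results was not tested, and in bulk RNA fewer cells of a type and less RNA per cell cannot be told apart.

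Sequences are shown first for the 5 miRNA members that matched a RefSeq entry, out of 35, because the other 30 carry only clone names. The mature forms below are those of RefSeq on the build GRCr8, 5′ to 3′, with the seed (bases 2 to 8) in capitals. They show which named miRNA hairpins reached 30 counts.
rno-let-7b-5p: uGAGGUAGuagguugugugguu
rno-let-7c-5p: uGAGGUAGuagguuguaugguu
rno-miR-568: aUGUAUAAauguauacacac
rno-miR-3064-3p: uUUGCCACacugcaacaccuuaca
rno-miR-762: gCGGGGCUagggccggga

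The let-7b and let-7c forms share the seed GAGGUAG, and the other 3 seeds differ from it and from each other. On GRCr8, let-7b-5p lies at chr7:118684044-118684065 and let-7c-5p of the let-7c-2 hairpin at chr7:118683636-118683657, both on the plus strand. miR-568 lies at chr11:70559921-70559940 on the minus strand, inside the RefSeq gene Zbtb20, and miR-3064-3p at chr10:92225520-92225543 on the minus strand, inside Ddx5. miR-762 lies at chr1:191754386-191754403 on the plus strand, inside the RefSeq span of Bcl7c. Reads were counted over whole gene bodies, so the hairpins of Mir568 and Mir3064, whose groups did not overlap, are shown too, with the mature form in capitals.
Mir568: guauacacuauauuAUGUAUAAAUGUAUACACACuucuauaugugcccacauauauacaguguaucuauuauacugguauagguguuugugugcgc
Mir3064: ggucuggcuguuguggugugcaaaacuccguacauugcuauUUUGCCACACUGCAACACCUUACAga

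The counts of the members were very uneven. One miRNA row, AC128792.1 (ENSRNOG00000036301, chromosome 1), held 16881 of the 35791 member counts (47.2%). The median member had 60 counts over the 6 libraries, and 94 of 112 had at most 200. The low-count filter of the test kept 59 of 112 members (52.7%), against 92.7% of all genes with at least 30 counts and 62.6% of those with 30 to 200. AC128792.1 had control counts of 2767, 2853 and 3192 and PCBP1-OE counts of 2688, 2666 and 2715. Its level was 140 ± 2.98 CPM (SD, n = 3) for controls against 131 ± 8.38 CPM (SD, n = 3) for PCBP1-OE, and the groups overlapped. Its log2 fold change was -0.10 (standard error, SE, 0.05, adjusted p = 0.226 by edgeR). Another abundant miRNA row, AABR07024593.2 (ENSRNOG00000048176, chromosome 16), had control counts of 179, 237 and 262 and PCBP1-OE counts of 245, 206 and 181. Its groups overlapped too, with a log2 fold change of -0.07 (SE 0.13, adjusted p = 0.742 by edgeR).

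In 7 of 112 members (6.25%) over 50% of the counts came from 1 library. Over all genes with at least 30 counts the share was 0.14%, or 19 genes, so that 7 of those 19 were small noncoding RNA genes. These 7 held 14% of the member counts. Most of them had clone names on chromosomes 6 and 14.

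**Figure D1:**
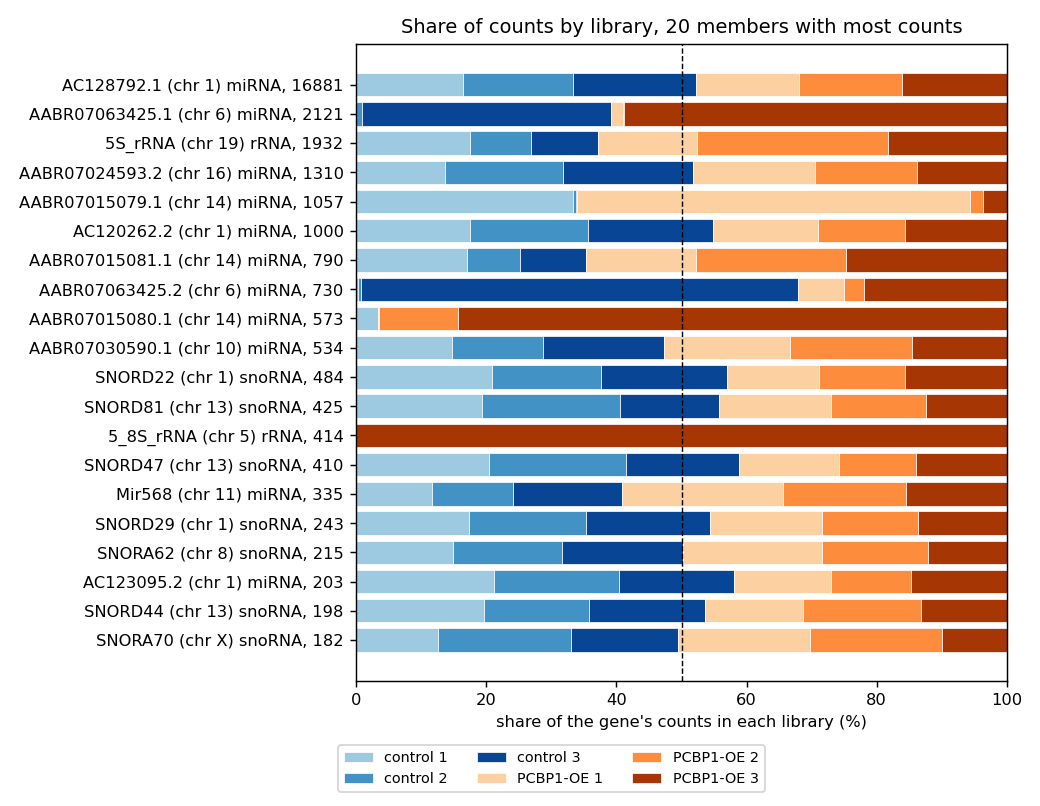
Horizontal bars give, for the 20 members with most counts, the percentage of each gene's raw counts in each of the 6 libraries (blue, controls 1 to 3; orange, PCBP1-OE 1 to 3), with gene type and summed counts on the vertical axis and a dashed line at 50%. AC128792.1 and the snoRNAs divide about evenly, while 5_8S_rRNA fills 100% from PCBP1-OE replicate 3 and AABR07015080.1 84.3%.

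On chromosome 6, AABR07063425.1 (ENSRNOG00000046707) had control counts of 1, 19 and 810 and PCBP1-OE counts of 39, 5 and 1247. AABR07063425.2 (ENSRNOG00000050156), on the same clone, had control counts of 2, 3 and 491 and PCBP1-OE counts of 51, 23 and 160. Both were highest in the replicates numbered 3 of each group, and in neither did the groups separate. A protein-coding row with the neighbouring clone number, AABR07063424.1, was chosen after its values were seen. It had control counts of 0, 1 and 2714 and PCBP1-OE counts of 1, 11538 and 0, so its high libraries were not all the same as those of the miRNA rows. Another miRNA row on chromosome 6, AABR07063462.1 (ENSRNOG00000055154), had control counts of 11, 10 and 52 and PCBP1-OE counts of 6, 0 and 15, with a log2 fold change of -1.73 (SE 0.76, adjusted p = 0.153 by edgeR). That value was -0.60 (adjusted p = 0.607) without control replicate 3 and -2.95 (adjusted p = 0.0884) without PCBP1-OE replicate 3.

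The miRNA rows of consecutive clones on chromosome 14 were each high in other libraries. AABR07015079.1 (ENSRNOG00000046081) had control counts of 352, 5 and 1 and PCBP1-OE counts of 639, 21 and 39. AABR07015080.1 (ENSRNOG00000057514) had control counts of 19, 0 and 0 and PCBP1-OE counts of 1, 70 and 483. AABR07015081.1 (ENSRNOG00000047351) had control counts of 135, 64 and 80 and PCBP1-OE counts of 133, 183 and 195. The first was led by replicate 1 of both groups, the second by PCBP1-OE replicate 3 alone, and the last was spread over all libraries. In all 3 rows at least 1 PCBP1-OE library lay within the range of the controls.

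Ribosomal RNA gave the most extreme case. 5_8S_rRNA (ENSRNOG00000058725, chromosome 5), part of the large ribosomal subunit, had 414 counts in PCBP1-OE replicate 3 and 0 in the other 5 libraries. A count of 0 allows up to 3 counts, or 0.134 to 0.153 CPM, in each of these libraries, as far as counting error goes. The last of the 7, AABR07000402.1 (ENSRNOG00000055836, chromosome 1), had control counts of 1, 0 and 22 and PCBP1-OE counts of 8, 1 and 2. Both fell below the low-count filter, and no fold change is given for them.

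The spread between libraries of the same group was compared with counting error by a chi-square per degree of freedom. Its mean is 1 where counting error alone acts, and its median is then below 1. The median over members was 0.958, and over all genes with 30 to 200 counts it was 1.41. Of the members, 85 were under 2 and 14 above 5. The snoRNA genes were the steadiest class by range, between 0.0818 and 3.41, with 0 of 63 above 5. Of 35 miRNA rows, 10 were above 5, and the highest was AABR07063425.1 at 975. The steadiest of all members was SNORD29, at 0.0818.

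**Figure D2:**
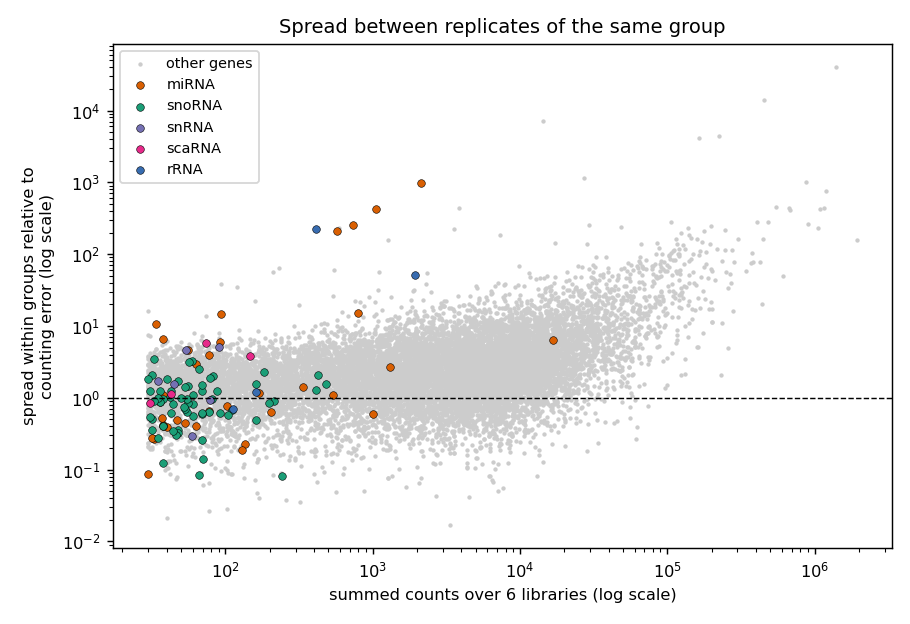
Each point is a gene with at least 30 counts, placed by its summed counts over 6 libraries (horizontal, log scale) and by its within-group spread relative to counting error (vertical, log scale), with members colored by class, other genes in grey and a dashed line at 1. The snoRNA genes lie at or below 3.41, and 5 members stand above 200.

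Between the groups, 2 of 59 tested members were called, both higher in PCBP1-OE, or 3.39%. Over all tested genes 9.45% were called, 4.45% higher and 5% lower. At most 200 counts, 0 of 42 tested members were called by edgeR, against 0.781% of all tested genes with that many. DESeq2 gave an adjusted p to 12 of the members and called 0 of them. An unadjusted p below 0.05 was reached by 11 of 59 members (18.6%), 8 higher and 3 lower, against 28.4% of all tested genes. The share of calls among members was thus not above that of the table. Without the low-count filter 12 of 112 members were called, 9 higher and 3 lower, against 10.1% of all rows, and those 12 included 6 of the 7 genes with over 50% of counts in 1 library. With the filter and without control replicate 3, 7 of 68 members were called (10.3%), against 22.3% of all genes. Without control replicate 1 it was 2 of 66 (3.03%, against 1.92%), and without PCBP1-OE replicate 1 it was 1 of 67 (1.49%, against 1.32%). Without control replicate 2 or PCBP1-OE replicate 2 or 3, 0 members were called, where the shares of all genes were 0.375%, 1.06% and 5.42%.

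**Figure D3:**
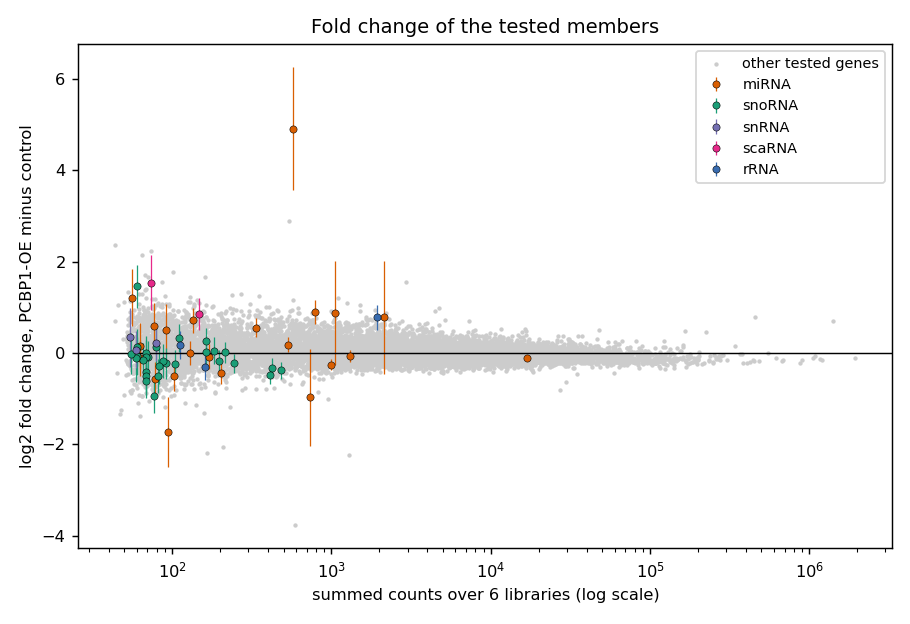
Each colored point is one of the 59 tested members, placed by summed counts (horizontal, log scale) and by log2 fold change of PCBP1-OE over control (vertical), with bars of 1 standard error, over the other tested genes in grey. The members scatter around 0, with a median of -0.07, and AABR07015080.1 stands apart at 4.91 with a long bar.

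Both called genes were miRNA rows of the clones on chromosome 14 described above. AABR07015081.1 was at 4.51 ± 2.08 CPM (SD, n = 3) for controls against 8.35 ± 2.06 CPM (SD, n = 3) for PCBP1-OE, a log2 fold change of 0.90 (SE 0.26, adjusted p = 0.0499 by edgeR). AABR07015080.1 had a log2 fold change of 4.91 (SE 1.35, adjusted p = 0.0408 by edgeR), and since 2 controls had 0 counts this value depends on the prior count and is no bound. AABR07015080.1 was no longer called without PCBP1-OE replicate 3 (log2 fold change 2.48, adjusted p = 0.223), PCBP1-OE replicate 2 (0.0747), control replicate 1 (log2 fold change 10.61, adjusted p = 0.107) or control replicate 2 (0.186), or with DESeq2 (0.267). AABR07015081.1 was not called without control replicate 2 (0.211) or 3 (0.0506), or PCBP1-OE replicate 1 (0.0736), 2 (0.155) or 3 (0.145), nor with DESeq2 (0.140) or RLE scaling (0.0511).

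Among the 4 rRNA members, the gene with most counts was a 5S_rRNA row on chromosome 19 (ENSRNOG00000055067). It had control counts of 338, 182 and 199 and PCBP1-OE counts of 293, 567 and 353. Control replicate 1 lay above PCBP1-OE replicate 1, so the groups overlapped, at 11.6 ± 4.87 and 19.8 ± 7.56 CPM (SD, n = 3 each). The log2 fold change was 0.78 (SE 0.27, adjusted p = 0.0806 by edgeR), and it moved with single libraries. It was 1.17 (adjusted p = 0.0448) without control replicate 1 and 0.44 (adjusted p = 0.343) without PCBP1-OE replicate 2, and the other 4 left-out libraries gave 0.61 to 1.00. The 2 other 5S_rRNA rows, on chromosomes 9 and 12, had 19 to 35 and 14 to 23 counts per library, with log2 fold changes of -0.31 and 0.17. 5S genes are near-identical copies, so how unique reads divide between them is uncertain.

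Other noncoding RNAs outside the members had the same lowest libraries as the 5S row, and were chosen after their values were seen. RNaseP_nuc (ENSRNOG00000054493, chromosome 15), the RNA of the enzyme that trims tRNA 5′ ends, had control counts of 195, 83 and 59 and PCBP1-OE counts of 135, 344 and 286. RNase_MRP (ENSRNOG00000057527, chromosome 5), which cuts ribosomal RNA precursors, had control counts of 115, 50 and 33 and PCBP1-OE counts of 74, 122 and 148. In these rows, as in the 5S row, controls 2 and 3 were the lowest libraries and control replicate 1 lay above PCBP1-OE replicate 1. The mitochondrial rRNA share of all counts was 0.377%, 0.227% and 0.180% for controls, against 0.260%, 0.377% and 0.479% for PCBP1-OE. The part of the level of these noncoding RNAs in the results was not tested.

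AABR07015055.1, a row of type protein_coding near the clones of chromosome 14 by its clone number, had the same 2 lowest libraries, with control counts of 86522, 41235 and 41230 and PCBP1-OE counts of 67529, 95996 and 124843. The log2 fold change of this row was 0.79 (SE 0.29, adjusted p = 0.0951 by edgeR), and that of AABR07015057.1, also protein_coding, 0.70 (SE 0.26, adjusted p = 0.102). Other protein_coding rows of these clones had values on the other side of 0. AABR07015078.1 had control counts of 500, 7 and 45 and PCBP1-OE counts of 2, 24 and 15, a log2 fold change of -3.77 (SE 1.14, adjusted p = 0.0555 by edgeR). AABR07015080.2, on the clone of one called miRNA row, had control counts of 143, 11 and 5 and PCBP1-OE counts of 22, 28 and 21, at -1.18 (SE 0.83, adjusted p = 0.379). In both, control replicate 1 was the highest library and the groups overlapped, and all 4 rows were chosen after their values were seen. Controls 2 and 3 were the lowest libraries in 9 of 112 members (8.04%), against 7.77% of all genes with at least 30 counts. The share of members with this order was thus near that of the table.

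All 4 scaRNA members were modest in count. SCARNA2 (ENSRNOG00000051850, chromosome 2), which RefSeq places in no host gene, had control counts of 16, 14 and 23 and PCBP1-OE counts of 22, 26 and 46. Its level was 0.837 ± 0.178 CPM (SD, n = 3) for controls against 1.55 ± 0.711 CPM (SD, n = 3) for PCBP1-OE, the groups overlapped, and the log2 fold change was 0.86 (SE 0.35, adjusted p = 0.127 by edgeR). Without PCBP1-OE replicate 3 the value for SCARNA2 was 0.44 (adjusted p = 0.452). SCARNA7 (ENSRNOG00000053927, chromosome 2) had control counts of 13, 5 and 1 and PCBP1-OE counts of 10, 27 and 18, with a log2 fold change of 1.54 (SE 0.61, adjusted p = 0.118 by edgeR), which was 2.64 without control replicate 1 and 0.99 without control replicate 3. RefSeq places SCARNA7 within Kpna4, a nuclear import receptor, whose own log2 fold change was 0.40 (SE 0.12, adjusted p = 0.0503). SCARNA13 and SCARNA16 had 3 to 12 counts per library and were not tested.

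A row typed snoRNA, snoU85 (ENSRNOG00000060559, chromosome 4), is also known as a Cajal body RNA that guides modification of the U5 snRNA. It had control counts of 8, 6 and 2 and PCBP1-OE counts of 16, 15 and 13, so the groups did not overlap. At 0.262 ± 0.161 and 0.711 ± 0.0419 CPM (SD, n = 3 each), its log2 fold change of 1.46 (SE 0.47) had an adjusted p of 0.0678 by edgeR. All 6 snRNA members had at most 37 counts in any library, and none of the 3 tested was called by edgeR, with 0 at an unadjusted p below 0.05. These small nuclear RNAs, 4 of them rows for U1, which recognizes the 5′ splice site, are multicopy genes. U2 (ENSRNOG00000061400, chromosome 10), which binds the branch point, had 8 to 18 counts per library and a log2 fold change of 0.21 (SE 0.38). U4 (ENSRNOG00000052742, chromosome 12), a partner of U6, had 1 to 16 counts and a log2 fold change of 0.34 (SE 0.65), and the U1 row on chromosome 13 had 7 to 12 counts and 0.07 (SE 0.40). The groups of all 3 overlapped. The U1 row on chromosome 10 (ENSRNOG00000055105) had control counts of 9, 7 and 8 and PCBP1-OE counts of 9, 37 and 20, and another on chromosome 11 (ENSRNOG00000055311) had control counts of 8, 12 and 5 and PCBP1-OE counts of 2, 6 and 2.

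The snoRNA members had lower summed levels in PCBP1-OE, at 48.4, 46.4 and 43.2 CPM for controls, against 40.9, 41.9 and 40.4 for PCBP1-OE. The groups did not overlap on this sum, which has no test because the members were chosen with results known. By edgeR 0 of 29 tested snoRNA genes were called, 1 higher and 2 lower had an unadjusted p below 0.05, and DESeq2 called 0 of the 3 to which it gave an adjusted p. Of the 29, 21 (72.4%) had a log2 fold change below 0, against 49.5% of all tested genes. The median was -0.15, and it was -0.23 over the 15 tested genes with SNORD symbols, which are box C/D, and -0.09 over the 10 with SNORA symbols, which are box H/ACA. Over all 59 tested members the median was -0.071, and over all tested genes 0.0029.

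**Figure D4:**
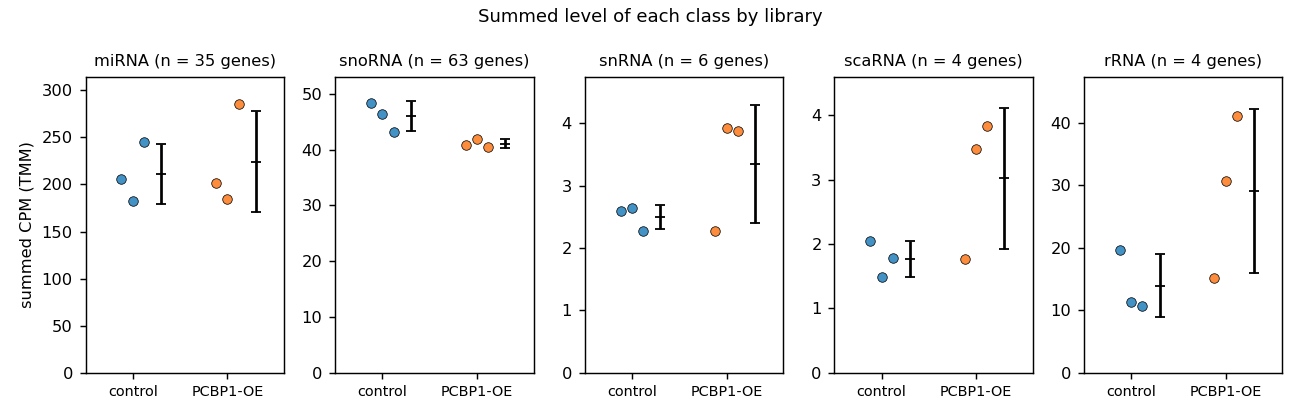
Points give the summed CPM of each class in each library, controls in blue and PCBP1-OE in orange, with mean and SD (n = 3) as a black mark and bar beside them, and every vertical axis starts at 0. The snoRNA sums of the groups stand apart (46.0 ± 2.66 for controls, 41.1 ± 0.762 for PCBP1-OE), while the other 4 classes do overlap.

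The snoRNAs with most counts were box C/D genes. SNORD22 (ENSRNOG00000056397, chromosome 1) had control counts of 101, 81 and 94 and PCBP1-OE counts of 68, 64 and 76. Its level was 4.41 ± 0.662 CPM (SD, n = 3) for controls against 3.38 ± 0.436 CPM (SD, n = 3) for PCBP1-OE, and its log2 fold change was -0.38 (SE 0.18, adjusted p = 0.176 by edgeR). The lowest control and the highest PCBP1-OE library of SNORD22 were nearly level, both printed as 3.88 CPM, and without control replicate 1 the log2 fold change was -0.25. SNORD29 (ENSRNOG00000058132), on the same chromosome, had control counts of 42, 44 and 46 and PCBP1-OE counts of 42, 36 and 33, at 2.10 ± 0.0458 and 1.79 ± 0.111 CPM (SD, n = 3 each), with an adjusted p of 0.505. These groups did not overlap either, and neither gene was called.

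On chromosome 13, 8 snoRNA genes were members. RefSeq places SNORD78 and SNORD81 inside Gas5, a host gene whose exons make no protein and whose introns carry box C/D snoRNAs. No single row was matched to Gas5, so no level of this host is given. The sums of the 8 genes were 15.1, 15 and 11.6 CPM for controls, against 12.2, 11.7 and 11.1 for PCBP1-OE, so control replicate 3 lay among the PCBP1-OE libraries. SNORD47 (ENSRNOG00000057278) had control counts of 84, 86 and 71 and PCBP1-OE counts of 63, 49 and 57, at 3.86 ± 0.604 and 2.73 ± 0.264 CPM (SD, n = 3 each), without overlap. Its log2 fold change was -0.49 (SE 0.19, adjusted p = 0.105 by edgeR), and with 1 library left out it ranged from -0.62 (adjusted p = 0.0297) without control replicate 3 to -0.40 (adjusted p = 0.296) without control replicate 1, the only call being the former. SNORD81 (ENSRNOG00000052013) had control counts of 82, 90 and 65 and PCBP1-OE counts of 73, 62 and 53, which overlapped, and SNORD78 (ENSRNOG00000055990) had 29, 29 and 23 against 29, 26 and 26. The log2 fold changes were -0.32 (SE 0.20) for SNORD81 and 0.02 (SE 0.26) for SNORD78, and their difference was not tested.

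SNORD72 (ENSRNOG00000060919, chromosome 2), which RefSeq places in the ribosomal protein gene Rpl37, had control counts of 17, 13 and 21 and PCBP1-OE counts of 11, 6 and 9. The groups did not overlap, and the log2 fold change was -0.94 (SE 0.38, adjusted p = 0.122 by edgeR). It had 77 counts over the 6 libraries, and no single row was matched to Rpl37.

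Over all members, tested or not, the CPM of the groups did not overlap in 18 of 112 (16.1%), 6 higher and 12 lower in PCBP1-OE. The background was 29.4% of all genes with at least 30 counts, 13.8% higher and 15.6% lower, and 14.1% of genes with 30 to 200 counts. Of the members with at most 200 counts, 12 of 94 (12.8%) did not overlap. With all 6 libraries, members were thus near genes of similar depth on this measure, and this moved with single libraries left out.

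The named miRNA hairpins were read the same way. Mir568 (ENSRNOG00000055598, chromosome 11) had control counts of 39, 42 and 56 and PCBP1-OE counts of 83, 63 and 52. After scaling these were 2.17 ± 0.287 CPM (SD, n = 3) for controls against 3.18 ± 0.558 CPM (SD, n = 3) for PCBP1-OE, without overlap, and the log2 fold change was 0.55 (SE 0.21, adjusted p = 0.0975 by edgeR). Without control replicate 3 it was 0.67 (adjusted p = 0.0479), and without PCBP1-OE replicate 1, the highest library, 0.41 (adjusted p = 0.356). Zbtb20, the transcription factor gene in which RefSeq places the hairpin, had control counts of 382, 250 and 243 and PCBP1-OE counts of 354, 493 and 588, with a log2 fold change of 0.74 (SE 0.22, adjusted p = 0.0531). The highest library was PCBP1-OE replicate 1 for the hairpin and PCBP1-OE replicate 3 for Zbtb20.

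Mir3064 (ENSRNOG00000050490, chromosome 10) had control counts of 15, 16 and 21 and PCBP1-OE counts of 31, 29 and 24. At 0.823 ± 0.0986 and 1.36 ± 0.115 CPM (SD, n = 3 each) the groups did not overlap, and the log2 fold change was 0.71 (SE 0.27, adjusted p = 0.104 by edgeR). Ddx5, an RNA helicase gene that holds the hairpin on GRCr8, had 17796 to 22511 counts in controls and 20559 to 23245 in PCBP1-OE. After scaling, Ddx5 was at 908 to 1000 CPM in controls and 1030 to 1050 in PCBP1-OE, so its groups did not overlap either. Its log2 fold change was 0.13 (SE 0.05, adjusted p = 0.0860 by edgeR).

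**Figure D5:**
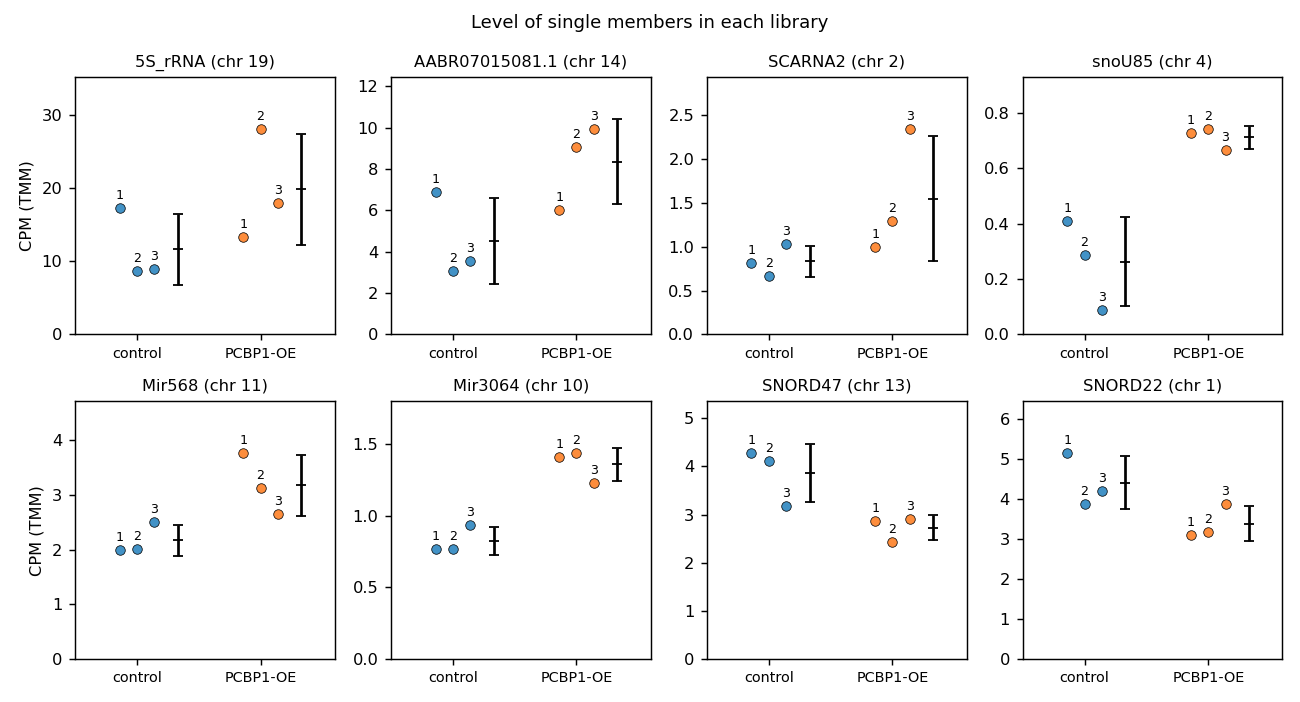
Each panel gives the CPM of 1 member in each library, with the replicate number over the point, controls in blue and PCBP1-OE in orange, mean and SD (n = 3) as a black mark and bar, and the vertical axis starting at 0. The groups overlap for the 5S_rRNA row of chromosome 19, AABR07015081.1 and SCARNA2, and do not for snoU85, Mir568, Mir3064, SNORD47 and SNORD22.

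Mirlet7b (ENSRNOG00000035636, chromosome 7) had control counts of 24, 18 and 19 and PCBP1-OE counts of 13, 17 and 12. The groups did not overlap after scaling, by a narrow margin, at 0.847 CPM in the lowest control and 0.843 in the highest PCBP1-OE library, and the log2 fold change was -0.51 (SE 0.33, adjusted p = 0.325 by edgeR), or -0.32 without control replicate 1. Mirlet7c-2 (ENSRNOG00000035461), of the same let-7 family and placed next to it on GRCr8, had control counts of 11, 8 and 5 and PCBP1-OE counts of 5, 3 and 4, which overlapped and were not tested. Mir762 (ENSRNOG00000040387, chromosome 1) had control counts of 7, 9 and 7 and PCBP1-OE counts of 9, 10 and 5. Bcl7c, which spans Mir762 on the opposite strand, had a log2 fold change of -0.21 (SE 0.06, adjusted p = 0.0404 by edgeR).

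The protein genes that make and carry these RNAs were read from lists. Of 111 tested rows in 6 lists, 15 were called, 7 higher and 8 lower in PCBP1-OE, where 9.45% of all genes were called. The list medians of the log2 fold change were 0.11 for miRNA processing, -0.04 for snoRNP proteins, 0 for snRNA factors, -0.03 for RNA polymerase III, 0.04 for tailing and decay and -0.10 for host genes, beside 0.0029 over all tested genes. In the list for miRNA processing, 3 of 14 were called and all were higher: Ddx17, a helicase of the Drosha complex, with a log2 fold change of 0.35 (SE 0.04, adjusted p = 0.00183 by edgeR), and the Argonaute partners Tnrc6b (0.25) and Tnrc6c (0.37). Of 17 snoRNP rows, Fbl, the methyltransferase of box C/D particles, fell by 0.20 on the log2 scale (adjusted p = 0.0425) and Ruvbl2, which helps assemble them, by 0.19, while Tgs1, a cap methyltransferase, rose by 0.26. Of 18 rows for snRNA transcription and assembly, Ints6, a subunit of the Integrator complex that cuts snRNA 3′ ends, was called, with a log2 fold change of 0.37 (adjusted p = 0.0191).

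Of 24 rows for RNA polymerase III and its RNAs, Pop5, a protein of RNase P and MRP, was called and fell by 0.25 on the log2 scale (adjusted p = 0.0226 by edgeR). Of 21 rows for tailing and decay, Zcchc7, a partner of the enzymes that add short A tails to nuclear RNA, rose by 0.37 (adjusted p = 0.0110). Of 35 listed snoRNA host genes, 19 were in the table. Among the 18 tested, 5 were called lower and 1 higher. Of those named here, a row with the symbol of the chaperone Hspa8, placed by the table on chromosome 5 where RefSeq has that gene on chromosome 8, and with 78 to 146 counts per library, fell by 0.69 on the log2 scale, Rpsa by 0.20, Eef1b2 by 0.19 and Tpt1 by 0.20, and Eif4a2, an RNA helicase of translation initiation, rose by 0.25. The number called moved with single libraries, as it did over the whole table. Without control replicate 3, 35 of 111 rows were called (31.5%, against 22.3% of all genes), and without control replicate 2 only 1 (0.901%, against 0.375%). Without control replicate 1 there were 4 (3.6%, against 1.92%). Without PCBP1-OE replicates 1, 2 and 3 there were 2, 3 and 10, where 1.32%, 1.06% and 5.42% of all genes were called.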

How the data were processed

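RNA-seq of poly-A RNA gave 3 control and 3 PCBP1-OE libraries, matched to groups and replicate numbers by their titles. The files deposited by the authors hold raw read counts for each gene. By the methods, reads were trimmed with FASTX-Toolkit, aligned with TopHat2 to Rnor_6.0 and counted where they mapped uniquely, which leaves reads of near-identical copies out or in doubt. The labels name GRCh38, but the gene identifiers are of rat. No source used here gives the counting tool or strand setting, and the labels and the paper name different library kits.

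Counts were tested with edgeR 4.0.16 (R 4.3.3): TMM, filterByExpr (minimum count 10, minimum total 15), which kept 12624 genes and left out 7985, and the quasi-likelihood test with Benjamini-Hochberg adjustment over all tested genes. Standard errors are the log2 fold change divided by the square root of F. Depth was 19730209 to 22315623 counts per library, so that a gene at 30 counts has about 5 per library. Alternatives were RLE and upper-quartile scaling, other filters, DESeq2 1.42.0, the replicate number as a block, each library left out, and a minimum sum of 60. The pipeline was tested on simulated data in which every gene had the same setting for spread beyond counting error. That setting does not cover members with most of their counts in 1 library. Members, lists and tests were chosen with earlier results of these data known. Genes named were the called members, the 4 with most counts per type, those with over 50% of counts in 1 library and those at the threshold; Mir568, Mir3064, Mirlet7b, Mirlet7c-2, Mir762, snoU85, SNORD72, SNORD78 and the U1 row of chromosome 11 were named after their values were seen. Names and host genes came from RefSeq tables of GRCr8, in which 24 of 112 members matched by symbol and chromosome, 21 of them inside a gene. One called host gene is not reported here by name.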

Additional observations from a re-analysis of the deposited data

How the results depend on the processing

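Over all genes 1193 were called, 2090 without a filter on low counts and 48 to 2860 with 1 library left out. The members called numbered 2, and 1 with RLE scaling, 1 with a filter of at least 1 CPM in at least 3 libraries, 1 without the members with over 50% of their counts in 1 library, 12 without a filter (9 higher, 3 lower), 0 of the 12 with an adjusted p from DESeq2, and 0 to 7 with 1 library left out, 7 being without control replicate 3. Machinery genes called numbered 15, and 1 to 35 with 1 library left out. With the replicate number as a block, 16 genes of the table, 0 members and 0 machinery genes were called. Libraries with the same number did not deviate together (correlations of deviations -0.10, -0.08 and -0.11). With 3 libraries per group this cannot decide whether the numbers mark a shared batch, and no source used here says so. The median log2 fold change of the members was -0.071, and 0.0074 with the filter of 1 CPM; with 1 library left out it ranged from -0.12 to 0.028, the highest being without control replicate 2, so its sign was not stable. The groups of 18 members did not overlap (16.1%, against 29.4% of all genes with at least 30 counts). With 1 library left out the number became 25 to 40 (22.3% to 35.7%), where the share of all genes was 35.5% to 48.9%. With fewer libraries in a group, groups separate more often by construction. At 30 to 200 counts, the share of members was 34% without control replicate 3, against 27% of genes at that depth. With any other library left out it was below that of such genes, as far as 18.1% against 25% without control replicate 1. None of the 16 members whose fold changes were followed changed sign under any alternative that could be computed. These 16 included every member with an unadjusted p below 0.05 by edgeR, so the choice itself favoured stable signs. The other tested members were not followed. Among them were AABR07063425.1, AABR07063425.2 and AABR07015079.1, with over 50% of their counts in 1 library. Outside its top library, PCBP1-OE replicate 3, AABR07063425.1 had 1.77 and 0.248 CPM in PCBP1-OE, below its control mean of 12.4. Outside PCBP1-OE replicate 1, AABR07015079.1 had 1.04 and 1.99 CPM in PCBP1-OE, below its control mean of 6.08. The signs of their log2 fold changes may thus depend on 1 library. The low-count filter left 53 members untested.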
